A study of Mus musculus with 7 samples.

Results

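Alveolar macrophages are recognised among other macrophages by a set of marker genes, and 9 genes listed as such markers were followed here: Chil3, F7, Car4, Plet1, Cd2, Slc7a2, Serpinb1a, Trim29 and Cbr2. The genes were taken by name from a given list, which was drawn up with earlier results of these data known, and all 9 were found by Entrez number among the 27179 genes of the count table. RNA was sequenced from alveolar macrophages that flow cytometry had picked out of the lungs of mouse bone marrow chimeras, to ask how these cells change without Suz12, a core subunit of the polycomb repressive complex PRC2, which places the repressive methyl mark on lysine 27 of histone H3. The 3 Suz12 cKO libraries came from irradiated C57BL/6-Ly5.1 hosts that had received 90% Suz12 conditional knockout marrow of the Ly5.2 type and 10% wild type Ly5.1 marrow. The 4 wild type libraries came from hosts of the same strain, irradiated in the same way and given 90% wild type Ly5.2 marrow and the same 10% wild type Ly5.1 marrow. Both groups therefore share irradiation, transplantation and a fraction of competitor marrow. The age of the mice, the Cre line, the deleted Suz12 exons, the sorting markers and whether competitor or surviving host macrophages were gated out are not stated in the labels.

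Alveolar macrophages live on the inner surface of the airspaces, where they clear surfactant, inhaled particles and dying cells. They settle in the lung from fetal monocytes around birth and can be replaced by marrow-derived cells after irradiation. Several of their marker genes encode proteins that are shared with other cell types: Cd2 with T and NK cells, Serpinb1a with neutrophils, and Cbr2 with the airway epithelium. In sorted bulk RNA such as this, fewer cells of a type and less RNA per cell cannot be told apart.

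The counts per library summed to between 63923829 and 70473901 in Suz12 cKO samples and between 48104653 and 79281431 in wild type samples, above the stated yield of 14 to 20 M (1e+06) single-end reads of 85 bases, and nothing in the labels says why. Levels are given as CPM, counts per 1e+06 counts of a library, after TMM scaling. Genes were tested with edgeR's quasi-likelihood test on the counts, and a gene was called at a Benjamini-Hochberg adjusted p under 0.05 over the 14436 genes tested. Suz12 itself had 22.1, 23.6 and 15.1 CPM in the Suz12 cKO libraries, against 56.5, 56.3, 73.9 and 68.9 CPM in the wild type libraries (log2 fold change -1.65 ± 0.18 SE, adjusted p = 0.00134), so that each library matched its label and Suz12 RNA was lowered but still present. Haemoglobin RNA summed to 192, 155.1 and 2.58 CPM in the Suz12 cKO libraries and to 3.23, 56.6, 5.17 and 2.29 CPM in the wild type libraries. The libraries with more than 20 CPM of haemoglobin RNA, Suz12 cKO 1 and 2 and wild type 2, recur below. Macrophage genes were abundant in all 7 libraries: Lyz2, the lysozyme of myeloid cells, was the most abundant tested gene per exon length in both groups, and Itgax and Siglecf, surface markers commonly used to identify these cells, had at least 2045 and 198 CPM in every library.

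Of the 9 marker genes, all passed the filter on low counts, 3 fell in Suz12 cKO macrophages (Cd2, Plet1 and Serpinb1a), none rose and 6 were not called. At an unadjusted p under 0.05 there were 5, with F7 and Chil3 added, and DESeq2 called the same 3 lower and 0 higher. Across all tested genes 10.3% were called, 4.02% lower and 6.28% higher. In 4 marker genes (the 3 called genes and F7) every Suz12 cKO library lay below every wild type library, a pattern shown by 11.5% of tested genes, and in the other 5 the ranges overlapped. The median log2 fold change of the 9 genes was -0.06, beside 0.00 over all tested genes, and 7 of the 9 values were negative. Without Chil3, which alone took 1.58% to 2.05% of all counts in a library, the other 8 genes held 0.258%, 0.245% and 0.250% of the counts in Suz12 cKO libraries, against 0.298%, 0.300%, 0.302% and 0.283% in wild type libraries. In this share no Suz12 cKO library reached a wild type one. The sum includes Cd2, Plet1, Serpinb1a and F7, already given as lower in every Suz12 cKO library, so it adds no further result. With Chil3 the share of all 9 genes was 2.27%, 2.29% and 2.05% in Suz12 cKO libraries, against 2.17%, 1.88%, 2.12% and 1.88% in wild type libraries, so that the ranges overlapped and the highest values were in Suz12 cKO libraries.

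**Figure D1:**
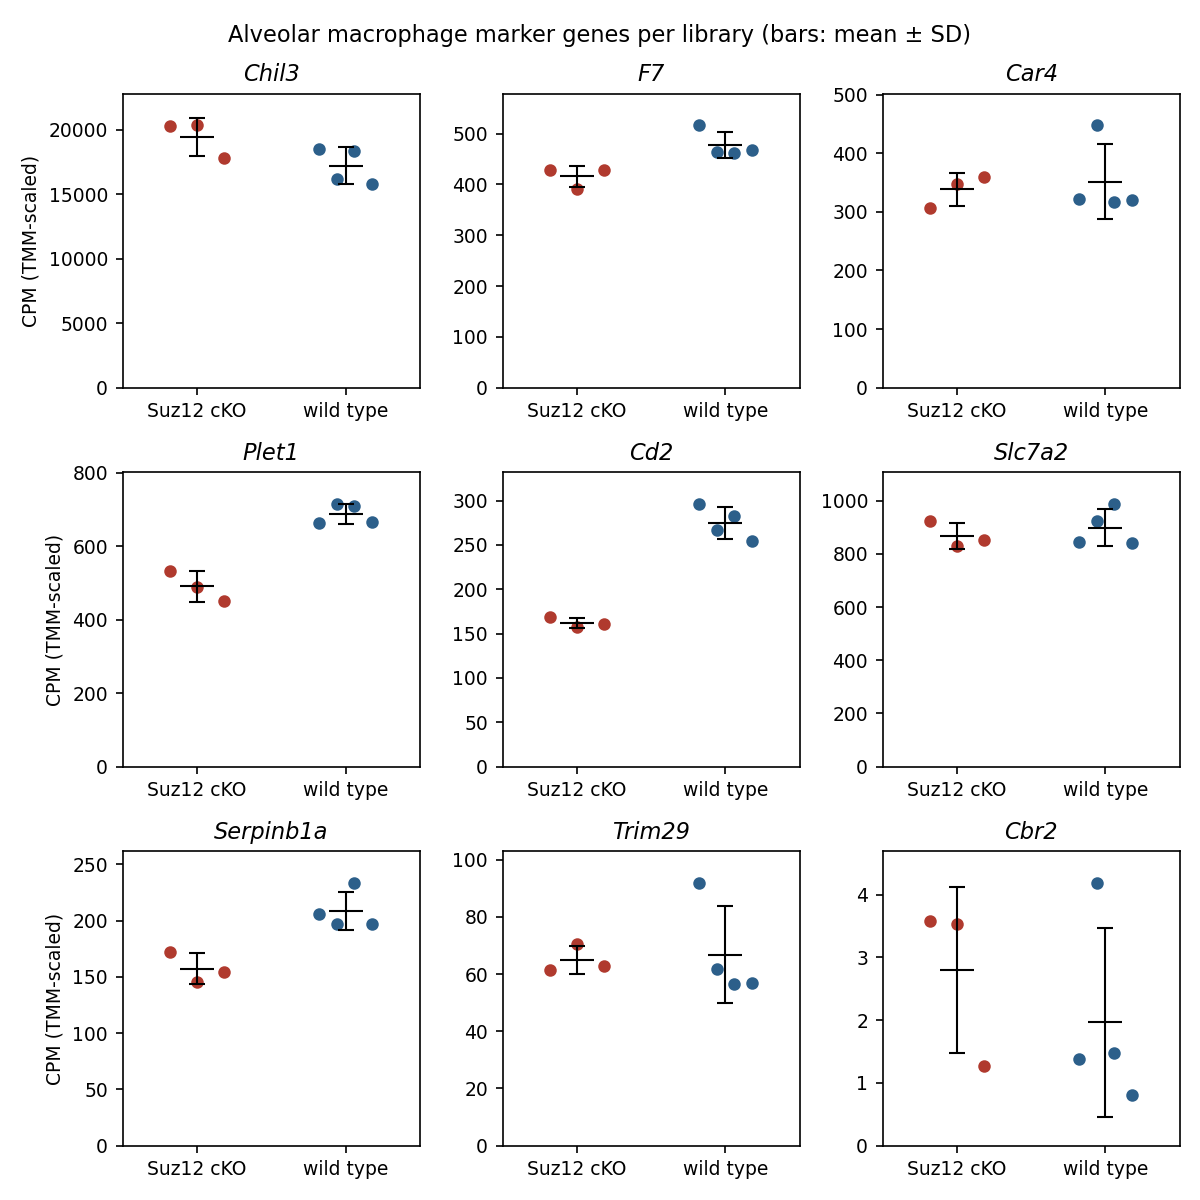
CPM of the 9 marker genes in each library, with 3 Suz12 cKO points left and 4 wild type points right in each panel; horizontal bars and whiskers give the mean ± SD, and each vertical axis starts at 0. The Suz12 cKO points of Cd2, Plet1, Serpinb1a and F7 lie below all wild type points, while those of Chil3, Car4, Slc7a2, Trim29 and Cbr2 mix with them.

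The sequence of the most abundant marker bears on how it can be counted, since Chil3 has a close relative on the same chromosome, Chil4, whose coding sequence aligned to that of Chil3 over 1206 positions with 55 mismatches and 12 gap positions, an identity of 94.4%. The transcripts are from GENCODE M21 on GRCm38, and the longest run of identical coding bases was 136, longer than a read. A stretch of 60 coding bases, positions 500 to 559 of the Chil3 coding sequence, shows both kinds of region, with the 10 differing bases in capitals.
Chil3: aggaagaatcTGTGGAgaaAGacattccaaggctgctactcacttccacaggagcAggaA
Chil4: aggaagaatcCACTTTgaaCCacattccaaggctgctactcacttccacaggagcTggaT
Of the 1455 windows of 85 bases in the Chil3 transcript, 141 (9.69%) also occurred in a transcript of another gene, and 87 of them in Chil4. The labels do not state how the authors treated reads with several possible origins, so a part of either gene's counts could belong to the other.

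Chil3 encodes the secreted chitinase-like lectin Ym1, a protein that alveolar macrophages of the mouse secrete in large amounts and that forms crystals when it accumulates. The gene lies on the minus strand of chr3:106147554-106167564 (GRCm38). Its level was 20267, 20364 and 17771 CPM in the Suz12 cKO libraries, against 18506, 16192, 18384 and 15811 CPM in the wild type libraries. Suz12 cKO libraries 1 and 2 stood above all wild type libraries, and library 3 fell within their range. The log2 fold change was 0.18 ± 0.08 SE with a 95% interval of 0.01 to 0.35 (adjusted p = 0.188), so that the direct test did not call the gene. Per exon length Chil3 was second among all tested genes in both groups, with 12649 ± 955 RPKM in Suz12 cKO and 11191 ± 923 RPKM in wild type macrophages (SD, n = 3 and 4). RPKM here means CPM per 1000 bases of the exon length that the authors deposited for each gene. Between libraries of high haemoglobin RNA the Chil3 difference was 0.33 on the log2 scale (adjusted p = 0.025) and between the others 0.00 (adjusted p = 0.99). The adjusted p ranged from 0.025 to 0.99 over all 16 alternatives, the difference between both strata was not tested, and in each stratum 1 group is a single library that is assumed to vary like the others.

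Chil4, which encodes the sister lectin Ym2, had 1642, 1680 and 1390 CPM in Suz12 cKO and 1516, 1338, 1530 and 1324 CPM in wild type libraries. The order of its libraries followed that of Chil3 closely (Pearson r = 0.97 over 7 libraries, a description only, as the genes share sequence). Neither Chil4 nor any of the other 4 tested genes of the chitinase group was called, among 8 listed, by edgeR or DESeq2, and 0 had an unadjusted p under 0.05. The lysosomal hydrolase gene Ctbs averaged 31.1 ± 4.27 CPM in Suz12 cKO and 27.5 ± 3.22 CPM in wild type macrophages, and Chid1 26.5 ± 6.95 and 27.2 ± 7.91 CPM in the same order of groups. The chitinase gene Chit1 was at or near 0 in all libraries, with at most 0.174 CPM. Nearly all counts of this group thus belonged to Chil3 and Chil4.

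The 300 bases around the start of Chil3, from 250 before to 50 after the first base (RefSeq, GRCm38.p6, chr3:106167515-106167814, minus strand), are shown with the letters TATAAA in capitals, because this promoter serves the most abundant marker. The window of Plet1, a marker that fell (chr9:50494275-50494574, plus strand), is set beside it, with the letters of all 4 motifs found there in capitals.
Chil3: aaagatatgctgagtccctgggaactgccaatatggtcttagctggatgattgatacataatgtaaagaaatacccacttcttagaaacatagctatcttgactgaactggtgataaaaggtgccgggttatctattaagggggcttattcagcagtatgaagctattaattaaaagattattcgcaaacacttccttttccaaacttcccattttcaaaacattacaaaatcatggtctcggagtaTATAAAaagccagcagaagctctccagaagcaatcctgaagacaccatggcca
Plet1: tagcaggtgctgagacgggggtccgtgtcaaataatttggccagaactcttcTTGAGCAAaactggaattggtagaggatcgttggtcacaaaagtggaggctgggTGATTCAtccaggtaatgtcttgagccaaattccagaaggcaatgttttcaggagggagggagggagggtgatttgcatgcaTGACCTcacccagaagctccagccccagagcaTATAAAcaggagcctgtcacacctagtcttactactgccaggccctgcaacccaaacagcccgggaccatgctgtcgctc
RefSeq windows were matched for 5 of the 9 genes. The letters TATAAA on the sense strand were present in 3 of these 5 (Chil3, Plet1 and Car4), beside 8.3% of 32851 promoter windows of the same length. In Plet1 they covered bases 30 to 25 before the start, in Chil3 they ran across the annotated start, and in Car4 they lay 43 to 48 bases after it. The Plet1 window also held TGANTCA (7.8% of all windows on either strand, the letters bound by AP-1), TTGCNNAA (10.8%, C/EBP) and AGGTCA (16.3%, letters bound by nuclear receptors), which did not overlap each other. GAGGAA, the core letters of PU.1 and other ETS factors (28.3% of all windows), occurred in F7 and Cbr2, and F7 held AGGTCA too. The observed over expected CpG ratio was 0.268 in Chil3, 0.245 in Plet1, 0.225 in F7, 0.186 in Cbr2 and 0.640 in Car4. All 5 lay within the middle range of all windows (quartiles 0.176 and 0.750, median 0.384), at percentiles 38.0, 35.0, 32.4, 26.5 and 66.8 in that order of genes. These are matches of letters, and no binding was measured.

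F7 encodes coagulation factor VII, the serine protease that joins tissue factor to start clotting; the liver is its main source and alveolar macrophages are known to transcribe it. On the plus strand of chr8:13025506-13035809, it had 428, 391.8 and 428 CPM in the Suz12 cKO libraries. The wild type libraries had 517, 463, 462 and 468 CPM. The highest Suz12 cKO library was below the lowest wild type library, yet wild type 1 alone stood far above the other wild type values. Its log2 fold change was -0.20 ± 0.08 SE (95% interval -0.39 to -0.01, adjusted p = 0.17), and it was called in none of the 16 alternatives.

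Among 28 listed genes of coagulation and fibrinolysis 20 were tested, of which 3 were higher in Suz12 cKO macrophages and none lower (7 had an unadjusted p under 0.05, and DESeq2 called 5 higher and 1, F10, lower), with a median log2 fold change of 0.49 against 0.00 over all tested genes. Of all tested genes 6.28% were called higher and 4.02% lower. Procr, the endothelial protein C receptor, had 28.8, 34.8 and 40.6 CPM in Suz12 cKO libraries, against 14.5, 14.3, 14.9 and 10.1 CPM in wild type libraries (log2 fold change 1.37 ± 0.18 SE, adjusted p = 0.00266). F13a1, the chain of factor XIII that cross-links fibrin, had 9.03, 10.5 and 10.6 CPM against 0.971, 3.13, 1.01 and 1.51 CPM in wild type (2.60 ± 0.43, adjusted p = 0.00697). Both were called in every alternative. Ggcx, the enzyme that carboxylates factor VII and other vitamin K-dependent factors, averaged 18.4 ± 0.572 CPM in Suz12 cKO and 12.8 ± 1.02 CPM in wild type macrophages (adjusted p = 0.0436), but was no longer called when any single library was left out (adjusted p = 0.0518 to 0.129). Abundant genes of the list were not called: Pros1, protein S, averaged 464 ± 58.0 and 486 ± 32.5 CPM, and Plaur, the urokinase receptor, 438 ± 115 and 435 ± 253 CPM in Suz12 cKO and wild type macrophages. Plaur was far higher in wild type 2, at 813 CPM, than in the other wild type libraries.

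Car4 encodes a carbonic anhydrase held on the cell surface by a lipid (GPI) anchor. From chr11:84957754-84966054, plus strand, it had 307, 348 and 360 CPM in Suz12 cKO libraries, against 322, 448, 316 and 319 CPM in wild type libraries. Apart from wild type 2, which stood above all other samples, the wild type values lay within the range of the Suz12 cKO values. The log2 fold change was -0.06 ± 0.14 SE (95% interval -0.37 to 0.26, adjusted p = 0.87) and turned to 0.07 without wild type 2 (adjusted p = 0.67 to 0.994 over the fits without a library). Of 15 listed carbonic anhydrase genes other than Car4, 8 were tested and edgeR called none, while 1, Car13, had an unadjusted p under 0.05 and was called by DESeq2. Car5b, a mitochondrial form, averaged 45.1 ± 7.88 CPM in Suz12 cKO and 45.2 ± 4.86 CPM in wild type macrophages. The cytosolic form Car13 had 18.1, 21.0 and 26.1 CPM against 16.01, 14.7, 13.7 and 12.02 CPM in wild type (log2 fold change 0.62 ± 0.17 SE, adjusted p = 0.0516). Per exon length Car5b, the next highest after Car4, had 13.1 RPKM in both groups. Car9, which is induced by low oxygen, averaged 5.51 ± 2.09 CPM in Suz12 cKO and 7.27 ± 1.75 CPM in wild type macrophages.

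Plet1 encodes a GPI-anchored glycoprotein first described in the placenta and in epithelial progenitors. The gene occupies chr9:50494525-50505639 on the plus strand, and its level was 534, 489 and 450 CPM in Suz12 cKO libraries. In wild type libraries it was 664, 714, 709 and 666 CPM. All Suz12 cKO libraries lay below all wild type libraries, and Plet1 fell by 28.7% in Suz12 cKO macrophages (log2 fold change -0.49 ± 0.08 SE, 95% interval -0.68 to -0.30, adjusted p = 0.00855). It stayed called in all 16 alternatives, with log2 fold changes between -0.61 and -0.45. An antisense gene, Plet1os, overlaps 261 exon bases of Plet1 (13.4%). Reads of both strands cannot be told apart where counting ignores strand, and the labels state no strand setting. Plet1os itself had at most 1.60 CPM in Suz12 cKO and at most 3.61 CPM in wild type libraries.

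Cd2 encodes an adhesion receptor known best from T and NK cells, which in the mouse binds CD48 on a neighbouring cell. At chr3:101275908-101287939, minus strand, it had 169, 157 and 160 CPM in the Suz12 cKO libraries, against 296, 267, 282 and 254 CPM in the wild type libraries. The gap between the groups, from 169 CPM in the highest Suz12 cKO library to 254 CPM in the lowest wild type library, was wider than the spread within either. Cd2 showed the largest change of the 9 genes with a call: it fell by 41.0% in Suz12 cKO macrophages (log2 fold change -0.76 ± 0.09 SE, 95% interval -0.96 to -0.56, adjusted p = 0.00173). It was called in all 16 alternatives, with log2 fold changes between -0.81 and -0.71. RNA of the T cell genes Cd3e and Cd3d, named after their values were seen, was scarce in both groups. Most of the summed level of the 21 lymphocyte markers lay in other genes of that list. Cd3e, a chain of the T cell receptor complex, had 0.395, 0.670 and 0 CPM in Suz12 cKO libraries and at most 0.307 CPM in wild type libraries. Cd3d had at most 0.426 CPM in Suz12 cKO libraries and 0 in wild type libraries. Of 21 lymphocyte markers 14 were tested, and none was called by edgeR or DESeq2 or reached an unadjusted p of 0.05. The median log2 fold change of the tested markers was 1.31. Over the whole list the summed level was 14.6 to 52.4 CPM in Suz12 cKO libraries and 6.78 to 49.6 CPM in wild type libraries. The part of lymphocyte RNA in the Cd2 level was not tested.

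Genes of the CD2 receptor family were then set beside Cd2. Of 10 other family genes listed, 8 were tested: 3 fell in Suz12 cKO macrophages (Cd244a, Ly9 and Cd48), edgeR called none higher (6 of 8 had an unadjusted p under 0.05, and DESeq2 called 4 lower, with Cd84 added, and 1, Slamf7, higher), and the median log2 fold change was -0.43. The share called lower over all tested genes was 4.02%. Cd244a, a receptor that also binds CD48, had 18.9, 23.6 and 28.5 CPM in Suz12 cKO libraries, against 63.1, 59.6, 60.5 and 60.5 CPM in wild type libraries (log2 fold change -1.36 ± 0.14 SE, adjusted p = 0.000978), and was called in all 16 alternatives. Cd48, the ligand of both receptors, had 133, 120 and 119 CPM in Suz12 cKO libraries, against 200, 158, 179 and 155 CPM in wild type libraries (-0.48 ± 0.11, adjusted p = 0.0313). Every Suz12 cKO library was again below every wild type library. Without any one library the Cd48 call held when wild type 2 or wild type 4 was left out and was lost when any other was (adjusted p = 0.0133 to 0.115). Ly9, a receptor that binds itself on other cells, had 48.8, 49.1 and 54.4 CPM in Suz12 cKO libraries, against 79.8, 58.3, 83.0 and 83.8 CPM in wild type libraries (-0.59 ± 0.14, adjusted p = 0.0289), and kept its call only when wild type 2, its lowest wild type library, was left out (adjusted p = 0.00185 to 0.108).

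Cd84, the family gene with the most counts, had 356, 341 and 475 CPM in Suz12 cKO libraries and 569, 486, 537 and 440.5 CPM in wild type libraries, with overlapping ranges (adjusted p = 0.13). Slamf9 had nearly equal values, at 143, 137 and 148 CPM in Suz12 cKO and 142, 143, 139 and 147 CPM in wild type libraries (log2 fold change 0.00, adjusted p = 1.0). The family thus did not move as one. Cd244a (chr1:171558718-171585316), Ly9 (chr1:171588613-171607410), Cd48 (chr1:171681245-171705258) and Cd84 (chr1:171839697-171890718) lie close together on chromosome 1, whereas Cd2 lies on chromosome 3. Between libraries of high haemoglobin RNA neither Cd48 (-0.31, adjusted p = 0.257) nor Ly9 (-0.25, adjusted p = 0.426) was called, and Cd48 was not called between the others either (-0.59, adjusted p = 0.077). Over the alternatives, between 1 and 4 family genes were called lower.

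**Figure D2:**
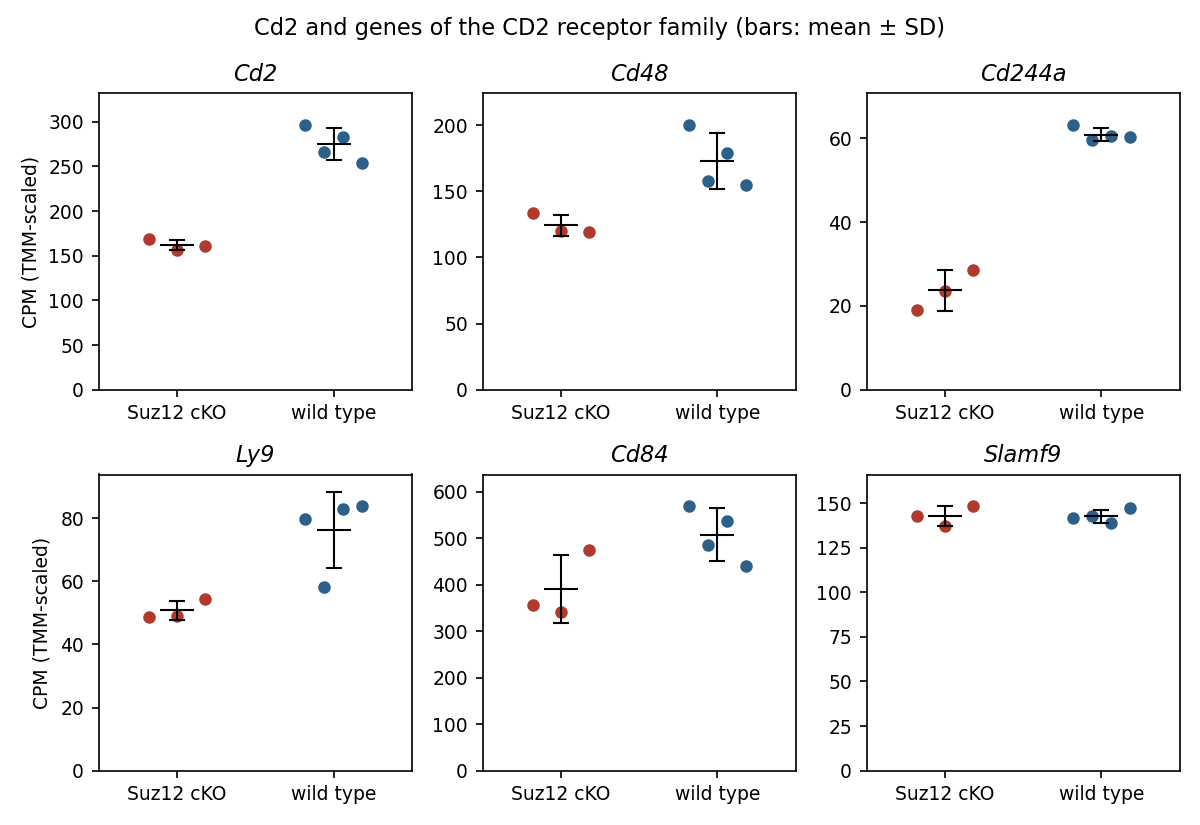
CPM of Cd2 and 5 genes of its receptor family per library, with Suz12 cKO left and wild type right in each panel; bars and whiskers give the mean ± SD, and each axis starts at 0. The groups are apart in Cd2, Cd48, Cd244a and Ly9, overlap in Cd84, and coincide in Slamf9.

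Slc7a2 encodes CAT2, a transporter that carries arginine and other cationic amino acids into the cell. Its exons span chr8:40862341-40922070 on the plus strand, and it had 923, 829 and 853 CPM in Suz12 cKO libraries, against 843, 922, 987 and 842 CPM in wild type libraries. The ranges overlapped almost entirely (log2 fold change -0.05 ± 0.09 SE, 95% interval -0.24 to 0.14, adjusted p = 0.797). A predicted gene on the opposite strand, Gm26584, overlaps 6.95% of its exon bases. Among 24 listed genes of cationic amino acid transport and arginine use 20 were tested, of which 4 rose and none fell (9 had an unadjusted p under 0.05, and DESeq2 called 5 higher and 0 lower), with a median log2 fold change of 0.38. The share called higher over all tested genes was 6.28%.

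Ass1, which makes the precursor from which arginine is regenerated, had 18.2, 18.7 and 25.9 CPM in Suz12 cKO libraries, against 3.78, 5.66, 6.03 and 5.44 CPM in wild type libraries (4.01-fold higher, 95% interval 2.84 to 5.66, adjusted p = 0.00136), and was called in every alternative. Slc7a4, an orphan relative of the cationic transporters, averaged 16.6 ± 1.58 CPM in Suz12 cKO and 6.01 ± 1.64 CPM in wild type macrophages (1.46 ± 0.24, adjusted p = 0.00635), and lost its call between libraries of low haemoglobin RNA (1.17, adjusted p = 0.0678), where Slc7a5 lost its call too (0.52, adjusted p = 0.0559). Slc7a5, the large neutral amino acid transporter, had 183, 175 and 127 CPM against 92.6, 113, 85.1 and 85.8 CPM in wild type (0.78 ± 0.15, adjusted p = 0.0137), and lost its call without Suz12 cKO 1 or 2. Arg2, the mitochondrial arginase, had 5.08, 4.26 and 8.86 CPM against 1.72, 2.59, 1.69 and 1.03 CPM in wild type (1.79 ± 0.42, adjusted p = 0.0295), and of the fits without a library kept its call only in that without wild type 2 (adjusted p = 0.0126 to 0.113). Between libraries of high haemoglobin RNA the Arg2 difference was 0.85 (adjusted p = 0.335). Slc3a2 and Azin1, the genes of the list with the highest mean CPM over all libraries, were not called: Slc3a2, the heavy chain that partners Slc7a5, averaged 304 ± 63.4 and 279 ± 155 CPM, and Azin1, an inhibitor of antizyme, 123 ± 4.24 and 148 ± 19.3 CPM in Suz12 cKO and wild type macrophages.

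Serpinb1a encodes an intracellular inhibitor of the neutrophil proteases elastase, proteinase 3 and cathepsin G. The gene, at chr13:32842092-32853206 on the minus strand, had 172, 145 and 155 CPM in Suz12 cKO libraries, against 206, 197, 233 and 197 CPM in wild type libraries. The highest Suz12 cKO value was below the lowest wild type value, and Serpinb1a fell by 24.5% in Suz12 cKO macrophages (log2 fold change -0.41 ± 0.10 SE, 95% interval -0.64 to -0.18, adjusted p = 0.038). The direction was the same in all 16 alternatives. The call was lost when any one library other than wild type 2 was left out (adjusted p = 0.0529 to 0.143) and was 0.023 without wild type 2. It was also lost between libraries of low (-0.47, adjusted p = 0.106) and of high haemoglobin RNA (-0.31, adjusted p = 0.29).

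Of 15 other clade B serpin genes 8 were tested, and none was called by edgeR or DESeq2 or had an unadjusted p under 0.05. Serpinb6a averaged 255 ± 36.2 CPM in Suz12 cKO and 252 ± 47.9 CPM in wild type macrophages, Serpinb9, an inhibitor of granzyme B, 37.2 ± 21.7 and 24.7 ± 3.86 CPM, and Serpinb6b 18.4 ± 16.2 and 8.69 ± 4.52 CPM in the same order. Of the 3 target proteases only Prtn3 passed the filter on low counts, and through the Suz12 cKO libraries alone, so its test is not given: it had 0.442, 0.670 and 1.02 CPM in Suz12 cKO libraries and 0 in all 4 wild type libraries. The elastase gene Elane had 0, 0.426 and 1.22 CPM in Suz12 cKO libraries and at most 0.0747 CPM in wild type libraries, and Ctsg was at 0 in all 7. Of 13 neutrophil markers 8 were tested, and edgeR called 4 higher in Suz12 cKO libraries and 0 lower. The shares over all tested genes were 6.28% higher and 4.02% lower. DESeq2 called 5 higher, and the median log2 fold change of the tested markers was 1.83. The whole list summed to 187 to 257 CPM in Suz12 cKO and 114 to 140 CPM in wild type libraries. Of the 4 called by edgeR, Retnlg had at most 0.0328 CPM in wild type libraries. It passed the filter on low counts only through the Suz12 cKO libraries. Its call therefore adds no support, though the count of 4 and the median of 1.83 include it. Ly6g and Camp, of the same list, were at 0 in all 7 libraries. Mmp8 averaged 84.3 ± 19.9 CPM in Suz12 cKO and 64.2 ± 8.81 CPM in wild type macrophages, Csf3r 62.3 ± 11.3 and 41.1 ± 6.27 CPM, and S100a8 57.9 ± 16.3 and 14.9 ± 5.18 CPM. The part of neutrophil RNA in the Serpinb1a level was not tested.

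Trim29 encodes a tripartite-motif protein without a RING domain that in mouse alveolar macrophages is known to restrain responses to viral RNA and DNA through NEMO and STING. Lying at chr9:43310715-43336125 on the plus strand, it had 61.4, 70.6 and 62.9 CPM in Suz12 cKO libraries, against 91.8, 61.9, 56.5 and 56.9 CPM in wild type libraries. The groups overlapped, and wild type 1 stood apart from all other samples. The log2 fold change of -0.04 ± 0.17 SE (95% interval -0.43 to 0.35, adjusted p = 0.93) turned to 0.15 when wild type 1 was left out (adjusted p = 0.46). Of 13 tested genes of TRIM29's targets and of RNA and DNA sensing, 1 rose and 1 fell in Suz12 cKO macrophages. With 6.28% of all tested genes called higher and 4.02% lower, these counts are no result about the list. The DNA sensor gene Cgas had 9.77, 10.1 and 7.22 CPM in Suz12 cKO libraries, against 18.3, 16.9, 20.3 and 17.7 CPM in wild type libraries (log2 fold change -1.02 ± 0.17 SE, adjusted p = 0.00776). Ikbke, a kinase upstream of interferon induction, had 21.2, 30.6 and 39.8 CPM against 13.3, 11.1, 15.6 and 10.6 CPM in wild type (1.27 ± 0.23, adjusted p = 0.00973). Both calls held without any one library, but the Cgas call was lost between libraries of high haemoglobin RNA (log2 fold change -0.76, adjusted p = 0.113; 5.09e-05 to 0.113 over all alternatives). The genes of the list with the highest mean CPM were not called: Ikbkb averaged 151 ± 0.345 and 170 ± 3.50 CPM, Nfkb1 154 ± 12.7 and 161 ± 11.2 CPM, and Mavs 102 ± 3.27 and 114 ± 1.59 CPM in Suz12 cKO and wild type macrophages.

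Cbr2 encodes a carbonyl reductase of lung mitochondria that is abundant in airway club cells. With exons on the minus strand of chr11:120729485-120732025, it was the lowest of the 9 genes, at 3.58, 3.53 and 1.27 CPM in Suz12 cKO libraries (227, 232 and 91 counts), against 1.38, 4.18, 1.48 and 0.804 CPM in wild type libraries (111, 255, 87 and 39 counts). High and low values occurred in both groups, and the 3 libraries above 3 CPM were those with high haemoglobin RNA. The log2 fold change was 0.51 ± 0.65 SE (95% interval -0.96 to 1.97, adjusted p = 0.708), so that neither a fall to 0.515 times nor a rise to 3.93 times the wild type level lay outside its interval. The club cell secretoglobin gene Scgb1a1 had 12.1, 37.0 and 0.476 CPM in Suz12 cKO libraries and 1.06, 46.8, 0.954 and 2.33 CPM in wild type libraries, highest in the same 3 libraries. The 9 airway markers, of which 7 were tested and 0 had even an unadjusted p under 0.05 in edgeR or a call by DESeq2, summed to 20.7, 51.4 and 4.41 CPM in Suz12 cKO libraries, and to 74.2 CPM in wild type 2 and 3.53 to 7.94 CPM in the other wild type libraries. The next airway genes, Bpifa1 and Cyp2f2, reached 11.2 and 6.83 CPM in wild type 2, and the basal cell gene Trp63 was at 0 in all 7 libraries. The part of airway RNA in the Cbr2 level was not tested. With a term for haemoglobin RNA the Cbr2 difference was -0.08 (adjusted p = 0.941), and it ranged over all 16 alternatives from -0.23 to 1.18 (adjusted p = 0.212 to 0.984).

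**Figure D3:**
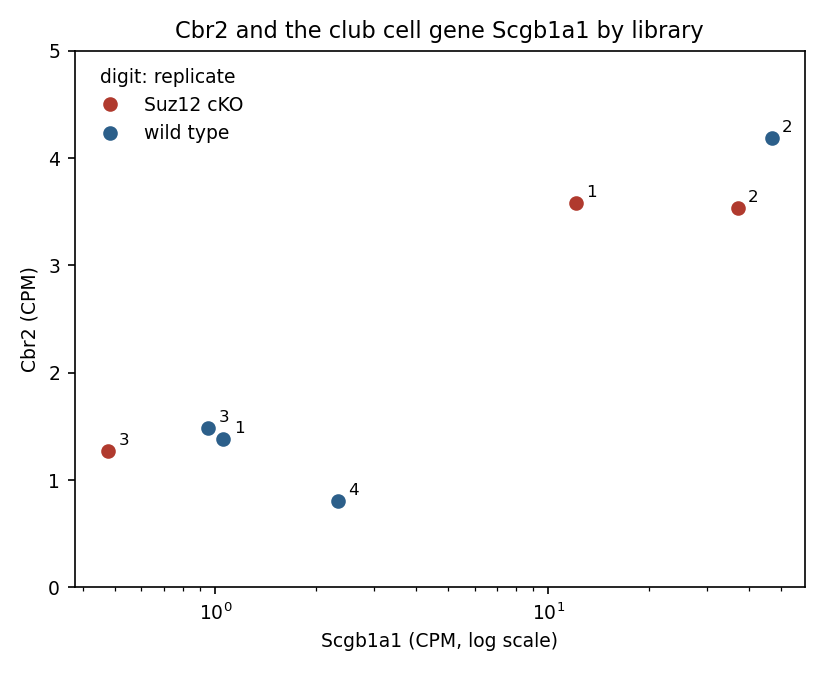
Cbr2 CPM (vertical axis, linear) against Scgb1a1 CPM (horizontal axis, log scale), 1 point per library with its replicate number, Suz12 cKO in red and wild type in blue. Suz12 cKO 1 and 2 and wild type 2 lie at the upper right, above 3.5 CPM of Cbr2, and the other 4 libraries at the lower left, below 1.5 CPM.

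All 8 other carbonyl and aldo-keto reductase genes listed were tested, and 1 rose: Dcxr, the xylulose reductase, had 33.4, 35.7 and 36.2 CPM in Suz12 cKO libraries, against 26.9, 27.0, 24.95 and 20.8 CPM in wild type libraries (log2 fold change 0.49 ± 0.12 SE, adjusted p = 0.0348). Its call held in the leave-one-out fits only without wild type 2 (adjusted p = 0.0257 to 0.115), and was lost with a term for haemoglobin RNA (adjusted p = 0.0525) and within either stratum of it (adjusted p = 0.119 and 0.349). Akr1c13, Cbr1 and Akr1b10, the genes of that list with the highest mean CPM over all libraries, averaged 36.5 ± 5.92, 31.9 ± 3.70 and 27.1 ± 2.61 CPM in Suz12 cKO macrophages and 39.6 ± 4.75, 30.9 ± 6.57 and 32.0 ± 6.16 CPM in wild type macrophages, without a call. As 6.28% of all tested genes were called higher, 1 gene of 8 is no result about the list.

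**Figure D4:**
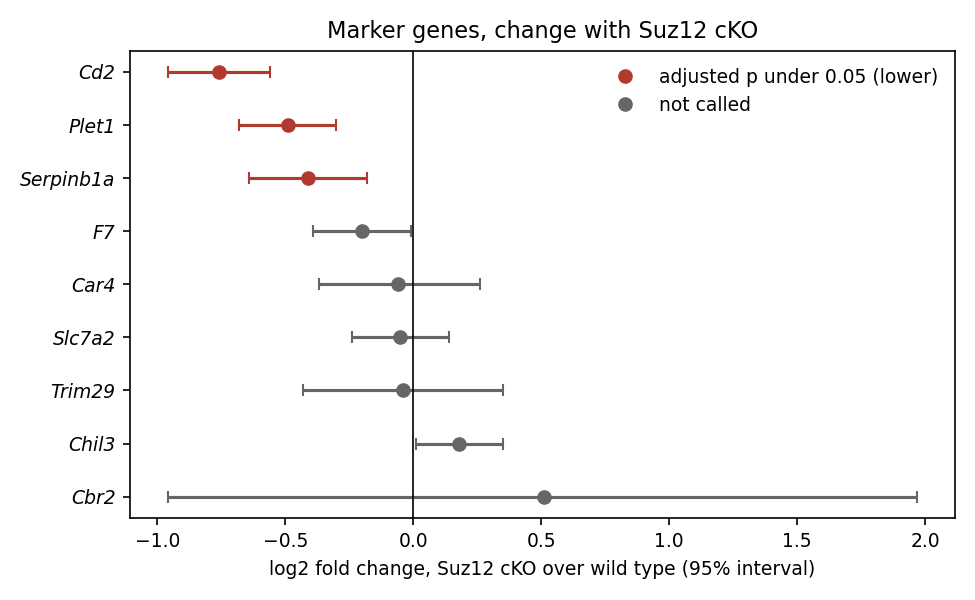
Log2 fold change of each marker gene, Suz12 cKO over wild type (horizontal axis), with its 95% interval from the edgeR fit; genes called lower are red and genes not called are grey. The intervals of Cd2, Plet1 and Serpinb1a end well below 0, that of F7 ends at -0.01, that of Chil3 starts at 0.01, and that of Cbr2 runs from -0.96 to 1.97.

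Levels can be compared between genes only per length. In RPKM the order was the same in both groups. Chil3 came first, at 12649 RPKM in Suz12 cKO and 11191 RPKM in wild type macrophages. Next came Plet1 at 266 and 373 RPKM, Car4 at 260.1 and 270.4 RPKM, F7 at 224 and 257 RPKM, and Cd2 at 142 and 240.3 RPKM, each with the Suz12 cKO mean before the wild type mean. Slc7a2 followed with 110.5 RPKM in Suz12 cKO and 114 RPKM in wild type, Serpinb1a with 82.0 and 109 RPKM, Trim29 with 23.0 and 23.6 RPKM, and Cbr2 last with 2.74 and 1.92 RPKM. Among neighbours in that order, Plet1 and Car4 overlapped in Suz12 cKO libraries. Car4 and F7, F7 and Cd2, and Slc7a2 and Serpinb1a overlapped in wild type libraries. Cd2 therefore lay below the range of F7 in Suz12 cKO macrophages and overlapped it in wild type macrophages. Among all tested genes Cd2 ranked 451st by RPKM in Suz12 cKO and 258th in wild type macrophages, and Plet1 198th and 142nd. Trim29, at ranks 3293 and 3281, exceeded 77.2% and 77.3% of the tested genes in Suz12 cKO and wild type macrophages. Cbr2, at ranks 9842 and 10165, exceeded 31.8% and 29.6% of them, and each of the other 7 markers exceeded at least 93.9%. By its level, Cbr2 did not stand out as a marker of the cells in these libraries.

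**Figure D5:**
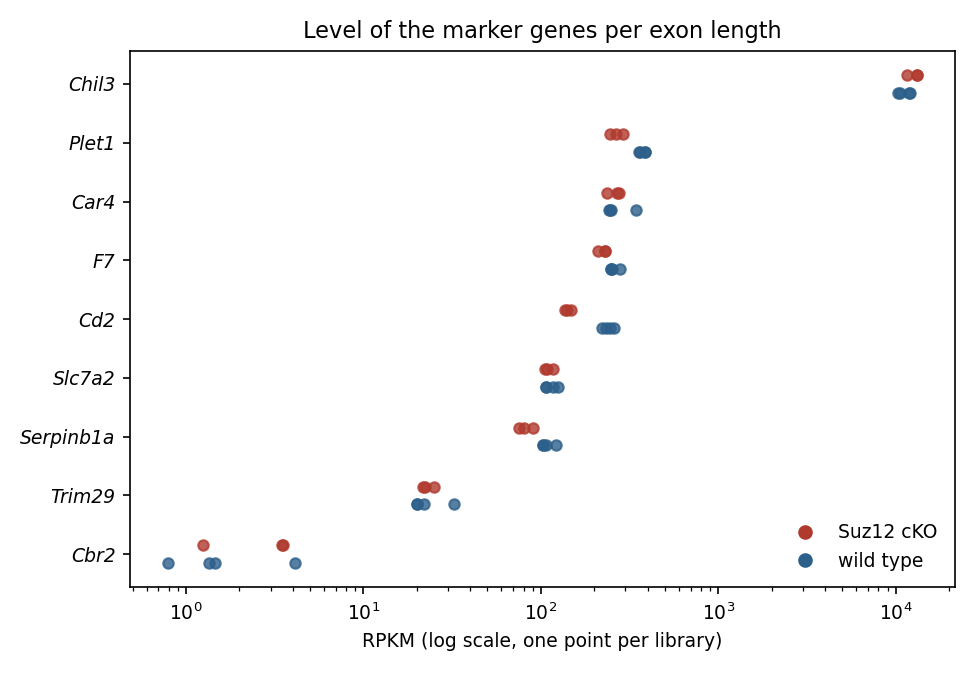
RPKM (horizontal axis, log scale) of each marker gene, 1 point per library, with the Suz12 cKO points drawn above the wild type points in each row. Chil3 lies more than 10-fold above all other markers, Cbr2 lowest, and the Suz12 cKO points of Plet1, F7, Cd2 and Serpinb1a lie left of the wild type points.

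Across the 7 libraries, the 4 genes whose groups did not overlap also varied together. The Pearson correlation of log2 CPM was 0.95 between Plet1 and Cd2, 0.93 between Cd2 and Serpinb1a, 0.92 between Plet1 and Serpinb1a, 0.89 between Cd2 and F7, 0.81 between F7 and Serpinb1a, and 0.76 between Plet1 and F7. The 4 genes were taken for the separation of their groups, which by itself gives high values of r. Chil3 ran the other way, with r between -0.43 and -0.56 against the same 4 genes. Slc7a2 had r between 0.12 and 0.59 against them, and Car4, Trim29 and Cbr2 between -0.47 and 0.34.

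Genes with a predicted or clone-derived symbol, or with none, were left out of a wider search. Among the remaining 8572 other tested genes of at least 10 CPM on average (8573 for Cbr2), those most like each marker were found by the same correlation over the 7 libraries. For Cd2 they were Tm6sf1 and Slc25a5 (r = 0.997 and 0.993), both called lower in Suz12 cKO macrophages (log2 fold change -0.50 for Tm6sf1 and -0.44 for Slc25a5, adjusted p = 0.00621 and 0.00712). For Plet1 they were Inpp5b and Mcam (r = 0.994 and 0.993), also called lower, by -0.36 and -0.91 (adjusted p = 0.0339 and 0.00419). Serpinb1a was most like Pilra and Evi2b (r = 0.993 and 0.984), of which Pilra was called lower (-0.51, adjusted p = 0.0219). Chil3 was most like Glt8d1 and then Chil4 (r = 0.981 and 0.973), and F7 like Dera and Psmd13 (r = 0.982 and 0.980), none of them called. Car4 was most like Neurl3 and Fam172a (r = 0.996 and 0.992), Slc7a2 like Gcc2 and Pggt1b (r = 0.969 and 0.944), and Trim29 like Arglu1 and Zfp692 (r = 0.972 and 0.946). For Cbr2 the closest were Taf7 and Hic2 (r = 0.984 and 0.983), again without a call. With so many genes and 7 points, high values of r arise readily, and the names are given as a description. Genes chosen for following a marker whose groups lie apart also tend to differ between groups, so their calls add no support.

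The 9 listed genes are a small sample, so 46 further alveolar macrophage markers were read from the same fit. Of 45 tested, 11 rose and 5 fell in Suz12 cKO macrophages, with a median log2 fold change of 0.11. Over all tested genes 6.28% were called higher and 4.02% lower. Among those that rose, Ear1, Ear2 and Ear10, secreted ribonucleases of near-identical sequence whose counts are uncertain, had log2 fold changes of 0.89, 0.54 and 0.50. The adhesion gene Cdh1 (E-cadherin) averaged 100.2 ± 12.1 CPM in Suz12 cKO and 51.0 ± 9.25 CPM in wild type macrophages (log2 fold change 0.97, adjusted p = 0.00464). Itgax (CD11c) and the lipid carrier gene Fabp4 completed the first 6, at 0.67 and 2.25. Among those that fell were the adhesion gene Epcam (-1.89), the tetraspanin gene Cd9, the keratin gene Krt19, the proton channel gene Hvcn1 and the receptor gene Cd200r4.

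Cd9 averaged 3170 ± 41.0 CPM in Suz12 cKO and 4365 ± 447 CPM in wild type macrophages (log2 fold change -0.46, adjusted p = 0.0101), a decrease of the size seen in Plet1. Krt19 averaged 335 ± 21.1 and 452 ± 24.8 CPM (-0.43, adjusted p = 0.0149), Hvcn1 481 ± 41.1 and 644 ± 22.0 CPM (-0.42, adjusted p = 0.0151), and Cd200r4 175 ± 28.2 and 259 ± 18.6 CPM (-0.56, adjusted p = 0.0214), with Suz12 cKO first in each pair. Krt19 and Hvcn1 lost their calls without Suz12 cKO 2, and Cd200r4 without Suz12 cKO 1, Suz12 cKO 2, wild type 1 or wild type 3. In the fits split by haemoglobin RNA, Cdh1 lost its call between libraries high in it (log2 fold change 0.55, adjusted p = 0.0863) and kept it between the others (1.25, adjusted p = 0.00331). Hvcn1 also lost its call between libraries high in it, Ear2, Ear10, Cd9 and Cd200r4 between those low in it, and Krt19 in both. Over the alternatives 8 to 15 of these markers were called higher and 2 to 10 lower. Of 12 general macrophage genes tested 1 was called higher in Suz12 cKO macrophages and none lower, 5 had an unadjusted p under 0.05, and DESeq2 called 2 higher and 2 lower. The edgeR count was near the share of 6.28% called higher over all tested genes. Lyz2, Ctsd and Lgals3, those with the highest mean CPM, were not called. Markers of the alveolar epithelium (20.4 to 41.2 CPM in sum in Suz12 cKO and 14.8 to 47.8 CPM in wild type libraries) and of endothelium (78.9 to 115 and 98.2 to 107 CPM, mostly Vwf) held no gene called by edgeR or DESeq2, and 0 had an unadjusted p under 0.05.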

How the data were processed

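The authors deposited a table of read counts in whole numbers, which the submitters' processing notes credit to featureCounts and the mm10 mouse genome, with no version. Per the labels' protocols, polyadenylated RNA was made into TruSeq libraries and sequenced as single-end reads of 85 bases. The aligner, annotation and strandedness, and how reads with several origins were handled, were not given in the sources used here. The exon length of each gene was deposited with the counts. Of 27179 genes by Entrez number, 25275 matched a RefSeq symbol, and the others held 0.829% of the counts.

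Counts were tested with edgeR 4.0.16 in R 4.3.3 (TMM scaling, filterByExpr with at least 10 counts, quasi-likelihood test, Benjamini-Hochberg adjustment over 14436 genes, threshold 0.05, 95% intervals), after a test on simulated data. The 3 Suz12 cKO and 4 wild type libraries were grouped by the genotype label, and genotype was the only term. The design text calls them biological replicates. No duplicate library was found: chi-square over degrees of freedom between libraries of a group was 45.01 or more. Precision is limited by the number of libraries, and floors cover counting error only. Log2 fold changes are Suz12 cKO over wild type. Errors are SD for levels and SE for log2 fold changes. Correlations were taken on log2 CPM (prior count 2). Positions, strands and overlaps came from GENCODE M21 (GRCm38, the assembly also called mm10), and promoters from RefSeq (GRCm38.p6).

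The 9 genes and all gene lists were chosen with earlier results of these data known. Named genes were Suz12, the 9 markers, for each marker the 2 genes most correlated with it, of each related list the called genes (at most 6) and the 3 of highest mean CPM, and of the other alveolar macrophage markers the 6 of smallest p in each direction among called genes; some genes that the rule names are not reported here. Mouse genes outside this rule (Chit1, Siglecf, Cd3e, Cd3d, Elane, Ctsg, Trp63, Ly6g, Camp, Retnlg, Slamf7, F10) were named after their values were seen. Of the listed genes Cd58, Rigi, Hbb-bt and Hbb-b2 were not analysed here. Replicate numbers were shared between groups, and the labels do not say whether they pair the libraries. Correlations of deviations were -0.04, 0.24 and 0.16 for libraries of the same number. Those for different numbers ran from -0.256 to 0.117, so pairing was not settled. Alternatives were DESeq2 1.42.0, RLE or no scaling, no filter or at least 100 counts in 3 libraries, leaving out each library, a replicate block, and a term for, or a split by, haemoglobin RNA above 20 CPM.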

Additional observations from a re-analysis of the deposited data

Results flagged for a closer look

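Among the 9 marker genes, 3 wild type values stood apart from the other 3 of their group, with a gap to the nearest value of 0.955 (Car4), 0.887 (F7) and 0.847 (Trim29) of the group's whole range, above Dixon's 95% limit for 4 samples. Chance flags about 1 in 20 groups of normally distributed values, and the share flagged over all tested genes was not computed. Car4 had 448 CPM in wild type 2, against 316 to 322 CPM in the other wild type libraries. F7 had 517 CPM in wild type 1, against 462 to 468 CPM in the others, and Trim29 had 91.8 CPM in wild type 1, against 56.5 to 61.9 CPM in the others. The Suz12 cKO group, with 3 libraries, was too small for this check.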

How the results depend on the processing

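Of 144 values of the 9 marker genes under 16 alternatives each, 128 kept their direction and their side of the threshold, 9 kept only the direction, 1 gained a call and 6 changed sign. Cd2 and Plet1 were called in all 16, and Serpinb1a in 7. All scaling and filter alternatives and DESeq2 left 3 markers lower and 0 higher. Without single libraries 2 to 3 markers were called lower, and between libraries of high haemoglobin RNA 1 (Chil3) was called higher. The sign changed for Car4 without single libraries (-0.12 to 0.07; 0.0701 without wild type 2) and between libraries of low haemoglobin RNA (0.16, against -0.45 with adjusted p = 0.0853 at high haemoglobin RNA). It also changed for Trim29 (-0.12 to 0.15 without single libraries; 0.094 at high haemoglobin RNA) and for Cbr2 (-0.0816 with the haemoglobin term; -0.23 at high haemoglobin RNA), and for Chil4 at low haemoglobin RNA (-0.0808); the cause was not tested. Over all tested genes, 906 were higher and 580 lower. DESeq2 called 1393 higher. Without single libraries 447 to 1515 were higher and 268 to 885 lower, the most of each without wild type 2. At low haemoglobin RNA 367 were lower and at high haemoglobin RNA 328. The fit with a replicate block, whose numbers are not said to pair the libraries, gave 585 higher and 278 lower genes and 2 lower markers (Serpinb1a not called). The alternatives for the related gene lists were added after the data were seen. At 39 to 255 counts, Cbr2 is the marker most limited by depth. Shared sequence is a further limit for it: of 1026 windows of 85 bases in its transcript, 90 (8.77%) also occurred in Gm11771.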
